A study of Mus musculus with 9 samples.

Results

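The genes described here are 46 factors of ribosome biogenesis and RNA polymerase I, taken by symbol from a gene table of the mouse medial ganglionic eminence (MGE) with 48526 Ensembl identifiers. Each symbol matched 1 identifier, and 45 of the 46 had a mean of at least 10 normalized counts and were among the 13780 genes tested. The MGE is a ventral forebrain region in which cortical interneurons are born. It was profiled by RNA sequencing at embryonic day 14.5 in 5 Ctnnb1 knockout and 4 control libraries of C57BL/6 mice, which asks how expression differs when beta-catenin is deleted. All 9 libraries carried Nkx2.1-cre and the Rosa26-YFP reporter, so deletion can occur only in cells that express Nkx2-1 or descend from such cells. The knockouts were Ctnnb1fl/fl. Control replicate 4 was Ctnnb1fl/wt, and control replicates 1 to 3 carried no floxed allele. Library input was 500 ng of total RNA (NEBNext Ultra kit). Neither cell sorting nor separate embryos per library are stated in the labels, which mention both collected cells and dissected MGE. The p-values therefore measure only how these libraries vary, and some of that variation may be technical.

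Ribosomes are assembled in the nucleolus. RNA polymerase I transcribes the long ribosomal RNA precursor, small nucleolar ribonucleoproteins (snoRNPs) guide its cleavage and chemical modification, and a succession of assembly factors builds and exports the small and the large subunit. Growing and dividing cells, neural progenitors among them, make ribosomes at a high rate, and the MYC family of transcription factors is a known activator of many of these genes.

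Of the 45 tested genes, 30 were lower in the knockout and 0 were higher, at an adjusted p under 0.05 by limma. Across all genes tested, 17.3% were lower and 17.2% were higher. The share lower among the 45 was 66.7%, and their median log2 fold change, knockout minus control on the log2(normalized count + 1) scale, was -0.43, against -0.01 over all genes tested. The changes were modest in size. A log2 fold change of -0.5 or below was reached by 18 genes and one of -1 or below by 0. Every knockout library lay below every control library for 31 genes, and the same held for 14.6% of all genes tested. When the knockouts were set against control replicates 2 and 3 alone, 16 genes were lower and 0 were higher, with a median of -0.32, beside 8.08% of all genes lower. All 16 are among the 30. All 18 markers of cycling progenitors were lower as well, with a median log2 fold change of -0.91, and their part in the lower levels of the 46 genes was not tested.

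The 5 knockout and 4 control libraries held 5120585 to 5569444 reads, as recovered from the steps between the deposited values and not from deposited read counts, and 20274 to 22903 genes above 0. Ctnnb1 averaged 6789 ± 828 normalized counts in the knockouts and 9828 ± 197 in the controls (SD, n = 5 and n = 4). Its log2 fold change was -0.54 with a standard error (SE) of 0.0960 and an adjusted p of 0.000811 by limma (exact two-sided permutation p = 0.00794, the smallest that the splits of 9 libraries can give). Transcript was lower in every knockout library but was not lost: the 5 knockouts held 72.3%, 77.9%, 72.6%, 66.9% and 55.7% of the control mean. These counts are for the whole gene. They measure neither the floxed segment alone nor the share of cells with the deletion. MGE markers such as Nkx2-1, Lhx6 and Gad1 summed to 32722 to 41153 normalized counts over 11 genes in the knockouts and to 21109 to 36239 in the controls. Of these 11 markers, 7 were higher in the knockout and 0 were lower, with a median log2 fold change of 0.48, and 4 were higher and 1 was lower against control replicates 2 and 3 only. Control replicate 1 stood apart in markers of the dorsal forebrain and the choroid plexus. Summed dorsal markers were 181 to 624 in the knockouts and 120 to 225 in control replicates 2 to 4, against 2700 in control replicate 1. Summed choroid plexus markers were 82.1 to 424 in the knockouts and 26.1 to 81.7 in control replicates 2 to 4, against 2851 in control replicate 1.

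Summed over the 46 genes, normalized counts were 18914, 19539, 19035, 18381 and 16951 in the knockouts and 25906, 22562, 23406 and 27826 in the controls. All 5 knockout sums lay below all 4 control sums. As a share of all normalized counts, the genes made up 0.358%, 0.367%, 0.346%, 0.345% and 0.316% in the knockouts and 0.501%, 0.421%, 0.434% and 0.520% in the controls. Knockout replicate 5 was the lowest of the 9 libraries for 25 of the 46 genes, and it was also the library with the least Ctnnb1. Control replicate 4, the heterozygous one, was the highest of the 9 for 28 genes, and control replicate 1 for 13. The median gene stood at 74.6%, 78.4%, 75.0%, 75.0% and 67.2% of the control mean in the 5 knockouts and at 103%, 93.2%, 95.2% and 111% in the 4 controls. In bulk samples, fewer cells of a type and less RNA per cell cannot be told apart.

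Of the 7 genes of the RNA polymerase I machinery, 3 were lower and 4 did not pass the test, with a median log2 fold change of -0.28. That median was -0.16 without control replicate 4 and -0.14 against control replicates 2 and 3 only. Polr1a encodes the largest, catalytic subunit of the enzyme. It had 221.6, 260.6, 241.7, 281.3 and 227.7 normalized counts in the knockouts, against 365.9, 316.8, 360.7 and 424.5 in the controls. The groups did not overlap, with -0.57 as the log2 fold change (adjusted p = 0.0013, SE 0.109). Polr1b, the second-largest subunit, had 159.2, 191.3, 176.5, 194.2 and 208.6 normalized counts in the knockouts and 253.7, 218.5, 222.1 and 243.1 in the controls, again without overlap. Its log2 fold change of -0.34 (adjusted p = 0.0256, SE 0.107) no longer passed without knockout replicate 1 or 3 or without control replicate 1 or 4. Mybbp1a, a nucleolar Myb-binding protein that associates with the polymerase I machinery, had 1067.2, 1100.0, 1000.1, 1158.7 and 986.3 normalized counts in the knockouts and 1506.0, 1410.4, 1400.7 and 1565.5 in the controls. It had the smallest p of the group, at -0.47 in log2 fold change (adjusted p = 0.000771, SE 0.0825). Both initiation factors on the list overlapped between the groups. Ubtf, the architectural factor that covers active ribosomal RNA genes, averaged 1628 ± 96.3 normalized counts in the knockouts and 1720 ± 122 in the controls, a log2 fold change of -0.08 with an adjusted p of 0.493. Rrn3, which links growth signals to the initiating polymerase, averaged 785 ± 42.0 in the knockouts and 777 ± 42.2 in the controls, a log2 fold change of 0.01 with an adjusted p of 0.910. The remaining subunits, Polr1c (shared with RNA polymerase III) and Polr1e, had log2 fold changes of -0.13 and -0.28 and adjusted p of 0.268 and 0.194. Against control replicates 2 and 3 only, Polr1a and Mybbp1a passed (adjusted p = 0.0251 and 0.0122) and Polr1b did not (adjusted p = 0.209).

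The genes of all 4 listed nucleolar proteins were lower, with a median log2 fold change of -0.65, and all 4 also passed against control replicates 2 and 3 only. Gnl3, or nucleostemin, is a nucleolar GTPase known from stem and progenitor cells. It had 245.3, 235.6, 176.5, 213.4 and 176.3 normalized counts in the knockouts, against 339.6, 334.7, 362.7 and 427.5 in the controls. The highest knockout stood well below the lowest control, at a log2 fold change of -0.81 (adjusted p = 0.00035, SE 0.124). Npm1 encodes nucleophosmin, a histone chaperone and a scaffold of the granular part of the nucleolus. It had 968.3, 1041.3, 956.9, 840.1 and 706.3 normalized counts in the knockouts and 1623.2, 1196.8, 1382.6 and 1835.5 in the controls. Among the controls, replicates 4 and 1 were the highest, and the log2 fold change of -0.74 (adjusted p = 0.00111, SE 0.134) was -0.52 against control replicates 2 and 3 only (adjusted p = 0.0232). Ncl, or nucleolin, had the highest mean of the 46 genes, with 2945.6, 3065.4, 3096.5, 2807.2 and 2237.7 normalized counts in the knockouts and 4386.6, 3567.7, 3853.5 and 5044.2 in the controls. Control replicate 4 was again the highest, and the log2 fold change of Ncl was -0.57 (adjusted p = 0.00218, SE 0.118). Nolc1, a chaperone of snoRNPs in the nucleolus and Cajal bodies, had 700.3, 683.6, 715.2, 684.1 and 639.8 normalized counts in the knockouts and 919.8, 898.9, 872.2 and 1119.0 in the controls. The 5 knockouts were tightly grouped, and the log2 fold change of Nolc1 was -0.47 (adjusted p = 0.00136, SE 0.0902).

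Box C/D snoRNPs carry out ribose methylation of ribosomal RNA, and 3 of their 4 listed proteins were lower, with a median log2 fold change of -0.61. Nop58 and Nop56 are the paired core proteins of the particle. Nop58 had 628.1, 652.9, 513.6, 553.0 and 446.3 normalized counts in the knockouts and 984.4, 719.1, 836.0 and 1221.7 in the controls, which is -0.74 as a log2 fold change (adjusted p = 0.00251, SE 0.150). Nop56 had 489.6, 555.8, 468.4, 472.7 and 420.1 normalized counts in the knockouts and 752.0, 682.3, 625.0 and 852.0 in the controls, which is -0.59 as a log2 fold change (adjusted p = 0.000911, SE 0.107). In both genes the groups were apart and control replicate 4 was the highest library. Fbl encodes fibrillarin, the methyltransferase itself. It was counted at a low level, with 48.5, 53.8, 55.2, 40.2 and 37.3 normalized counts in the knockouts and 72.8, 58.6, 68.3 and 94.7 in the controls. Its log2 fold change of -0.63 (adjusted p = 0.0154, SE 0.183) did not pass without control replicate 4 or against control replicates 2 and 3 only (adjusted p = 0.182). Rrp9, a protein specific to the snoRNP that guides early small-subunit cleavages, averaged 211 ± 17.8 normalized counts in the knockouts and 241 ± 34.0 in the controls, with overlap and an adjusted p of 0.233.

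Box H/ACA snoRNPs convert uridine to pseudouridine, and their proteins are also part of telomerase. All 4 listed proteins were lower, with a median log2 fold change of -0.69. Dkc1 encodes dyskerin, the pseudouridine synthase, and lies on chromosome X (75095854 to 75109777 of mm10, plus strand). It had 318.5, 308.7, 251.8, 273.6 and 228.7 normalized counts in the knockouts, against 485.1, 457.9, 464.2 and 544.1 in the controls. No knockout came near a control, and -0.83 in log2 fold change (SE 0.110) went with the smallest adjusted p of the 45 genes, 0.000152. Gar1, which binds dyskerin near its active site, had 109.8, 153.8, 120.4, 118.6 and 101.8 normalized counts in the knockouts and 212.3, 176.8, 190.9 and 243.1 in the controls. Gar1 thus had a log2 fold change of -0.77 (adjusted p = 0.000898, SE 0.138). Nhp2, an RNA-binding core protein, had 311.6, 292.3, 283.9, 266.0 and 247.8 normalized counts in the knockouts and 478.1, 332.7, 367.8 and 516.2 in the controls. For Nhp2 the log2 fold change was -0.58 (adjusted p = 0.00353, SE 0.128). The groups of both genes were apart. Nop10, the smallest core protein, had 233.4, 239.4, 205.6, 188.5 and 172.3 normalized counts in the knockouts and 423.5, 258.2, 245.2 and 371.7 in the controls, or -0.61 in log2 fold change (adjusted p = 0.0104). For both Nhp2 and Nop10, control replicates 1 and 4 lay far above the other controls. Against control replicates 2 and 3 only, Nhp2 and Nop10 had log2 fold changes of -0.32 and -0.29 and did not pass (adjusted p = 0.0750 and 0.186), while Dkc1 and Gar1 passed (adjusted p = 0.00427 and 0.0239).

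Factors of the small-subunit processome and of later small-subunit maturation were lower for 7 of 11 genes, with a median log2 fold change of -0.42. Rrp12, known from yeast as an export and maturation factor, had 149.4, 139.4, 110.3, 138.7 and 88.7 normalized counts in the knockouts and 223.4, 186.7, 216.0 and 256.1 in the controls. Its log2 fold change of -0.83 (adjusted p = 0.00113, SE 0.154) equalled that of Dkc1 to 2 decimals. Ltv1, known from yeast to leave the pre-small subunit before its last maturation steps, had 142.4, 125.0, 129.4, 122.5 and 100.8 normalized counts in the knockouts and 186.0, 180.8, 180.9 and 218.2 in the controls. Ltv1 stood at -0.63 in log2 fold change (adjusted p = 0.0015, SE 0.122), with all libraries apart. Wdr43, a subunit of the complex that engages the nascent precursor first, had 305.6, 318.3, 250.8, 348.3 and 295.2 normalized counts in the knockouts and 429.6, 353.6, 385.9 and 470.3 in the controls. Knockout replicate 4 came within a few counts of control replicate 2, at a log2 fold change of -0.43 (adjusted p = 0.00913, SE 0.113). The processome scaffolds Utp20 and Heatr1 and the late GTPase-like factor Tsr1 had log2 fold changes of -0.53, -0.42 and -0.44 (adjusted p = 0.0119, 0.0109 and 0.0175). Noc4l, a partner of Nop14 in small-subunit assembly as known from yeast, had -0.32 (adjusted p = 0.0195) and did not pass without control replicate 4. The 4 genes that did not pass all overlapped between the groups. Nol6, a processome component, had the highest fold change of the 45 genes, with 536 ± 59.6 normalized counts in the knockouts and 494 ± 47.1 in the controls and a log2 fold change of 0.12 (adjusted p = 0.396). Nob1, the endonuclease of the final small-subunit cleavage, averaged 328 ± 22.9 in the knockouts and 335 ± 22.4 in the controls (adjusted p = 0.835). Bysl and Utp15 had log2 fold changes of -0.28 and -0.11 (adjusted p = 0.0753 and 0.409). Against control replicates 2 and 3 only, Rrp12 and Ltv1 passed (adjusted p = 0.0275 and 0.0269) and the other 5 lower genes did not, Wdr43 among them (adjusted p = 0.136).

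Of 16 large-subunit factors, 15 were tested and 9 were lower, with a median log2 fold change of -0.35. Ftsj3, a ribosomal RNA methyltransferase, had 376.9, 338.5, 365.1, 380.8 and 336.5 normalized counts in the knockouts and 562.0, 504.6, 474.3 and 590.9 in the controls. The log2 fold change of Ftsj3 was -0.56 (adjusted p = 0.00052, SE 0.0928). Ddx21, a nucleolar RNA helicase, had 682.5, 721.1, 651.0, 692.7 and 553.1 normalized counts in the knockouts and 992.5, 893.9, 936.5 and 1110.1 in the controls. For Ddx21 the log2 fold change came to -0.58 (adjusted p = 0.000642, SE 0.0981). Rrp1b, a nucleolar factor that also binds chromatin, had 190.9, 210.6, 182.6, 198.1 and 206.5 normalized counts in the knockouts and 304.2, 266.2, 278.3 and 325.8 in the controls. Rrp1b came to a log2 fold change of -0.57 (adjusted p = 0.000748, SE 0.0988). Neither these genes nor Rrs1, known from yeast to help bring a small ribosomal RNA into the large subunit, had any overlap between the groups. Rrs1 had a log2 fold change of -0.57 (adjusted p = 0.0015). These 4 genes were also the large-subunit factors that passed against control replicates 2 and 3 only, with log2 fold changes of -0.45, -0.48, -0.46 and -0.49 for Ftsj3, Ddx21, Rrp1b and Rrs1.

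The PeBoW complex, which processes the precursor of the large-subunit RNA, consists of Pes1, Bop1 and Wdr12. Pes1 averaged 289.9 ± 13.2 normalized counts in the knockouts and 365 ± 21.9 in the controls, with a log2 fold change of -0.33 (adjusted p = 0.0093). Wdr12 averaged 125 ± 13.3 in the knockouts and 176 ± 27.1 in the controls, with a log2 fold change of -0.49 (adjusted p = 0.00963). Bop1 averaged 342 ± 29.7 in the knockouts and 402 ± 43.1 in the controls, with overlap, a log2 fold change of -0.23 and an adjusted p of 0.0903. Whether Bop1 differed from its partners was not tested. Noc2l, whose yeast homolog carries pre-large subunits through the nucleoplasm, had a log2 fold change of -0.35 (adjusted p = 0.00469), and its partner Noc3l had -0.25 (adjusted p = 0.0818) although its groups did not overlap. Nop2, a cytosine methyltransferase, likewise had no overlap at -0.21 (adjusted p = 0.0831). Nip7 and the helicase Ddx18 passed at -0.40 and -0.43 (adjusted p = 0.0239 and 0.0260). Nip7 was the only gene of the 30 whose groups overlapped, and it did not pass without control replicate 1, control replicate 4 or knockout replicate 4. Ddx18 did not pass without knockout replicate 1 or 5 or without control replicate 1 or 4. Ebna1bp2, Nle1 and Nol9 had log2 fold changes of -0.23, -0.27 and -0.13 (adjusted p = 0.0679, 0.111 and 0.260) and overlapped. Wdr74, a large-subunit factor, had 4.0, 6.7, 9.0, 6.7 and 8.1 normalized counts in the knockouts and 5.1, 6.0, 9.0 and 9.0 in the controls. Its mean was below the filter for testing, at 6.89 ± 1.91 normalized counts in the knockouts and 7.26 ± 2.05 in the controls.

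**Figure D1:**
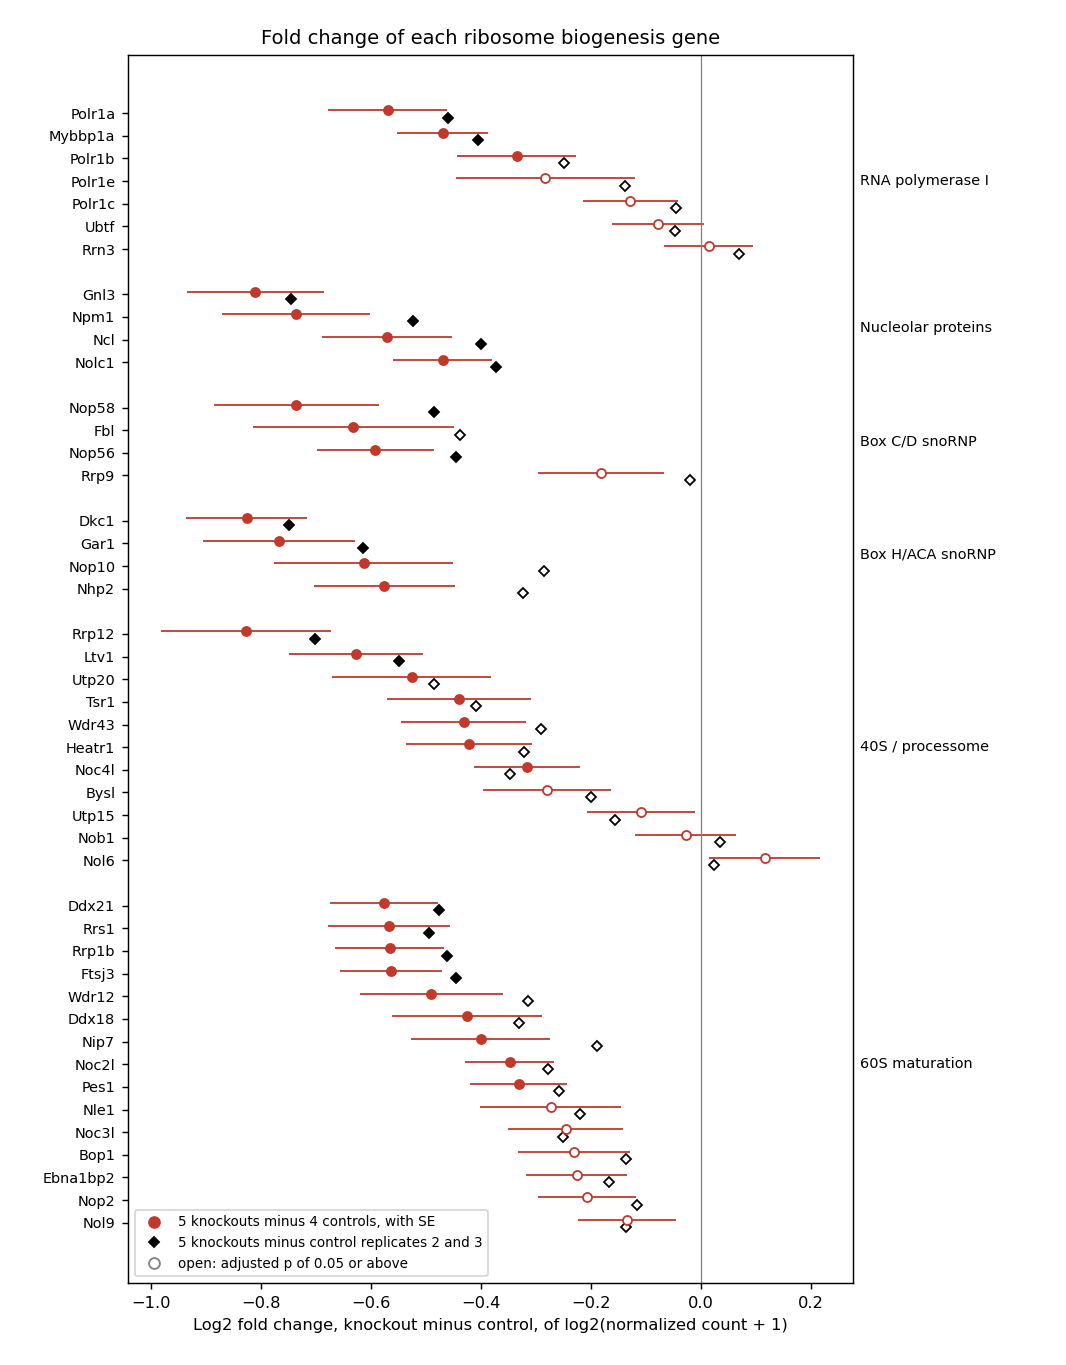
Log2 fold change, knockout minus control, of log2(normalized count + 1) for the 45 tested genes by role; circles with SE bars use all 4 controls, diamonds use control replicates 2 and 3 only, and filled symbols have an adjusted p under 0.05. Filled circles number 30 and filled diamonds 16, and Rrn3 and Nol6 are the only circles above 0.

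Levels were also taken per kilobase of exon, with all annotated exons of a gene merged. On that scale the mean over the 9 libraries was highest for Npm1 at 440 normalized counts per kb. Ncl followed at 338, Nhp2 at 300 and Ubtf at 255. The lowest levels on that scale were 3.78 per kb for Wdr74, 12.3 for Wdr12 and 14.0 for Fbl. This order depends on the merged exon length and is not an order of counts. Wdr12 had a higher mean normalized count than Ddx18, Polr1e and Nle1, which all stood above it per kb. A snoRNA gene lay inside the span of 7 of the 46 genes on the same strand, 21 snoRNA genes in all. All 7 host genes were lower: Dkc1, Gnl3, Ncl, Nop56, Nop58, Tsr1 and Wdr43. Among all 45 tested genes 66.7% were lower, and whether host genes differed from the others was not tested. The mature snoRNAs were not measured here. Exons of 17 genes overlap exons of a gene on the opposite strand, and for 9 of them that neighbour exceeded 10% of the gene's own mean. Strand use in the counting is not stated, so these values may include reads of the neighbour. Among the neighbours, Mpp1 beside Dkc1 had a log2 fold change of -0.19 (adjusted p = 0.378), Pbrm1 beside Gnl3 -0.14 (adjusted p = 0.338), and Idh3b beside Nop56 -0.02 (adjusted p = 0.888). Rmnd5b beside Nhp2 was higher at 0.64 (adjusted p = 0.000829), as was Mroh1 beside Bop1 at 0.71 (adjusted p = 0.000929), while Ccnd3 beside Bysl was lower at -0.51 (adjusted p = 0.00292). Lgals8 beside Heatr1, Carf beside Wdr12 and Srr beside Tsr1 had log2 fold changes of 0.42, 0.39 and 0.26. They did not pass (adjusted p = 0.0890, 0.229 and 0.147).

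The hexamer CACGTG, an E-box, is known as the preferred sequence of dimers of MYC and MAX. It was searched in RefSeq promoter windows of GRCm38.p6 (the assembly that mm10 names) with 250 bases before and 50 after the start; its letters are the same on both strands. A window existed for 40 of the 46 genes, and 9 of the 40 held the hexamer (22.5%), against 8.09% of 27025 genes with a window and 11.6% of the 9825 tested genes with one. These are descriptions with no test. Among genes with a window, 6 of the 26 lower genes and 3 of the 14 others held it. The stretches of up to 30 bases around each match are shown because they show how the hexamer sits in genes that were lower and in genes that were not. Capitals mark the hexamer, each stretch reads 5′ to 3′ on the gene's strand, and the lower genes come first.
Mybbp1a, chr11:72441355-72441376, plus strand: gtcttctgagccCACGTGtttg
Wdr43, chr17:71616220-71616249, plus strand: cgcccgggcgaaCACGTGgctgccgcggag
Utp20, chr10:88826765-88826789, minus strand: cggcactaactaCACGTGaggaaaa
Ltv1, chr10:13193092-13193121, minus strand: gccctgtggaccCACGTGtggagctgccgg
Tsr1, chr11:74898092-74898121, plus strand: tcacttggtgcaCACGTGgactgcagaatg
Pes1, chr11:3963965-3963994, plus strand: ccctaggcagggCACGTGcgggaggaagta
Rrn3, chr16:13780472-13780501, plus strand: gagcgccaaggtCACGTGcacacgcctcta
Rrn3, chr16:13780639-13780668, plus strand: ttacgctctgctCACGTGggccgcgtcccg
Nop2, chr6:125131811-125131840, plus strand: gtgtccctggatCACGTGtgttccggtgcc
Nle1, chr11:82908355-82908384, minus strand: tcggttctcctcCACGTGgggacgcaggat

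In all 6 lower genes the hexamer began after the RefSeq start, at base 41 in Mybbp1a, 18 in Wdr43, 38 in Utp20, 29 in Ltv1, 25 in Tsr1 and 3 in Pes1. In Rrn3, the only gene with 2 matches in a window, they began at -215 and -48, in Nop2 at -60 and in Nle1 at base 24. The matches are letters in a window and not measured binding. Positions over all windows were not examined, and a link between position and lower level was not tested. The other motifs searched, on both strands, were CCGGAAGT of ETS factors, found in 12 of the 40 genes and in 9.36% of tested genes; CGCATGCG, the core of the NRF1 motif, found in 2 and in 4.51%; and TTTGGCGC or TTTCCCGC of E2F factors, found in 3 and in 3.58%.

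Among 19 regulators of the MYC and mTOR pathways, 8 were higher and 3 were lower. Across all genes tested, 17.2% were higher and 17.3% were lower, and the 3 lower regulators, 15.8%, are near that share. Myc, at a low level, averaged 74.8 ± 23.5 normalized counts in the knockouts and 25.8 ± 4.75 in the controls, at 1.46 in log2 fold change (adjusted p = 0.000439, SE 0.235). Mycn, the family member known from neural progenitors, had 347.2, 434.6, 454.4, 411.4 and 314.3 normalized counts in the knockouts and 732.8, 807.5, 520.5 and 681.6 in the controls. The log2 fold change of Mycn was -0.80 (adjusted p = 0.00073, SE 0.137) without overlap, so the 2 family members changed in opposite directions. Mycl averaged 931 ± 62.6 in the knockouts and 858 ± 84.1 in the controls and did not pass (adjusted p = 0.324). Summed over Myc, Mycn and Mycl, normalized counts were 1273 to 1558 in the knockouts and 1474 to 1708 in the controls, with overlap. Of the MAX-binding repressors, Mxd1 and Mxd4 had log2 fold changes of 0.83 each (adjusted p = 0.000827 and 0.00296), Mxi1 of 0.51 (adjusted p = 0.00241) and Mnt of 0.48 (adjusted p = 0.010). Max, the shared dimer partner, and Mlx, its relative, passed more narrowly at 0.26 and 0.37 (adjusted p = 0.0474 and 0.0321), and when each library was left out in turn Max passed in 1 of 9 fits and Mlx in 4. Mxd3, known from dividing cells, had a log2 fold change of -0.67 (adjusted p = 0.00337). Of the mTOR pathway, Tsc1, an inhibitor, had 0.48 (adjusted p = 0.00495) and Rheb, an activator, -0.35 (adjusted p = 0.00829). Mtor, Rptor and Rictor had log2 fold changes of 0.04, 0.07 and 0.29 and did not pass. Tsc2, Rps6kb1, Maf1 and the MAX-binding Mga did not pass either. Against control replicates 2 and 3 only, Myc, Mycn, Mxd1, Mxd3, Mxd4 and Mxi1 passed, and Max, Mlx, Mnt, Tsc1 and Rheb did not.

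Further ribosome biogenesis factors, 120 genes outside the 46, were lower for 39 and higher for 2, with a median log2 fold change of -0.24 and 32.5% lower. Against control replicates 2 and 3 only, 8 of the 120 were lower and 1 was higher, with a median of -0.14, beside 8.08% of all genes lower. Without control replicate 1 the count of lower genes was 24, and without control replicate 4 it was 19. By role, 20 of 44 small-subunit factors (45.5%) and 14 of 49 large-subunit factors (28.6%) were lower. For 2 of 10 snoRNP assembly factors (20.0%) and 3 of 17 further polymerase I genes (17.6%) the share was near the 17.3% of all genes tested. The last list includes subunits shared with RNA polymerase II. Pa2g4, a nucleolar factor of the large subunit, averaged 859.6 ± 88.9 normalized counts in the knockouts and 1324 ± 154 in the controls, with a log2 fold change of -0.62 (adjusted p = 0.000563). Wdr36, Bud23 and Wdr46 of the small subunit had log2 fold changes of -0.51, -0.58 and -0.44, and Ddx27 and Urb1 of the large subunit of -0.46 each. Naf1, which assembles box H/ACA snoRNPs, averaged 59.0 ± 2.57 in the knockouts and 91.7 ± 13.5 in the controls, with a log2 fold change of -0.62 (adjusted p = 0.00413). Tcof1, or treacle, which joins polymerase I transcription to RNA modification, averaged 544 ± 44.6 in the knockouts and 705 ± 23.9 in the controls, with a log2 fold change of -0.38 (adjusted p = 0.00397). Baz2a, part of a complex that silences ribosomal RNA genes, was 1 of the 2 that were higher, at 706 ± 23.5 in the knockouts and 549 ± 88.3 in the controls (log2 fold change 0.38, adjusted p = 0.0128), but did not pass against control replicates 2 and 3 only. The other was Riok3, a kinase of the small-subunit pathway, at 0.25 (adjusted p = 0.0266).

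Of the 75 tested genes for cytosolic ribosomal proteins, 20 were lower and 0 were higher, 26.7% of those tested, with a median log2 fold change of -0.25. Against control replicates 2 and 3 only, 1 was lower, Rps2, and the median was -0.12. Without control replicate 1 the count was 8, and without control replicate 4 or knockout replicate 4 it was 11 each, and 13 without knockout replicate 3. Rps2 averaged 870.0 ± 29.9 normalized counts in the knockouts and 1320 ± 246 in the controls, with a log2 fold change of -0.58 (adjusted p = 0.00111). Rpl8 had 5433.2, 5242.3, 5350.4, 4744.7 and 4984.1 normalized counts in the knockouts and 8194.0, 5780.6, 6114.4 and 6964.4 in the controls, with control replicates 1 and 4 the highest (log2 fold change -0.38, adjusted p = 0.0099). Many ribosomal protein genes, and Npm1, have near-identical processed copies, so their counts are uncertain. RNA polymerase III, which makes transfer RNAs and a small ribosomal RNA, had a median log2 fold change of -0.09 over 21 genes. Of these, 1 was lower (4.76%) and 0 were higher, and 0 were lower against control replicates 2 and 3 only. The exosome, which trims ribosomal RNA, had 8 lower genes of 13 (61.5%) with a median of -0.34, led by Exosc7 at -0.64 (adjusted p = 0.00357). It had 5 lower without control replicate 1 or 4. Against control replicates 2 and 3 only it had 0 lower, beside 8.08% of all genes.

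**Figure D2:**
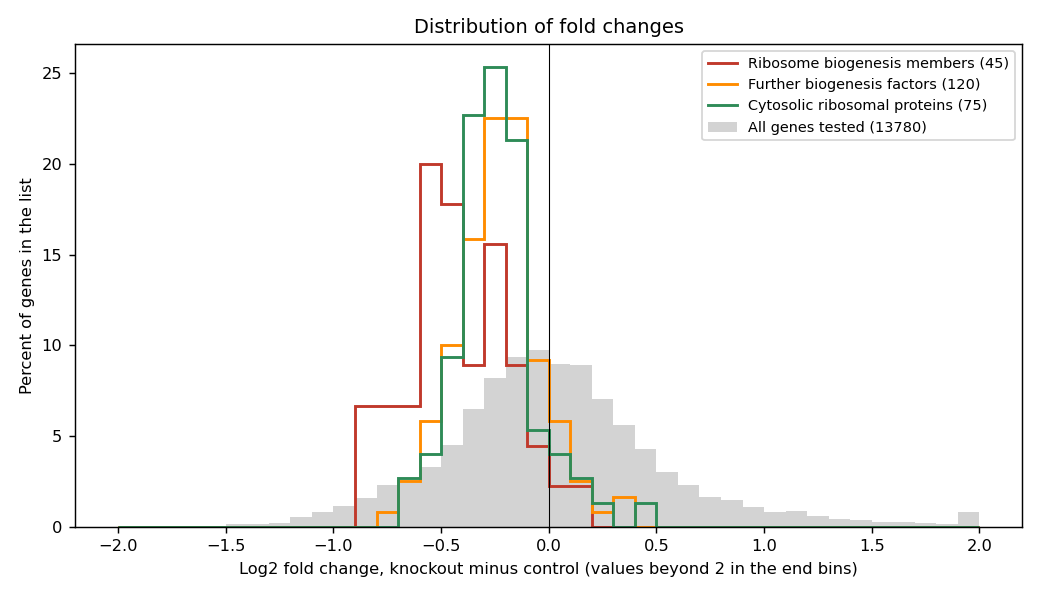
Distribution of log2 fold changes, knockout minus control (x axis), as a percent of the genes of each list (y axis), for the 45 tested genes, 120 further biogenesis factors, 75 ribosomal protein genes and all 13780 genes tested. The medians are -0.43, -0.24, -0.25 and -0.01.

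Markers of dividing cells moved with the 46 genes. Of the 18 cycling markers, 12 were lower against control replicates 2 and 3 only. The summed normalized counts of all 18 were 22989, 27405, 20303, 19123 and 13426 in the knockouts and 36796, 35979, 36815 and 40971 in the controls. The mean log2 level of the 45 ribosome biogenesis genes was 8.22, 8.27, 8.204, 8.18 and 8.06 in the knockouts and 8.67, 8.49, 8.53 and 8.74 in the controls. In both lists knockout replicate 5 was the lowest library, knockout replicate 2 the highest knockout and control replicate 4 the highest of all. Of 12 radial glia markers 7 were lower and 0 were higher, with a median of -0.82, and of 12 neuronal markers 9 were higher and 0 were lower, with a median of 0.84. Summed markers of blood were 3324 to 7928 in the knockouts and 2814 to 12730 in the controls, and summed markers of microglia were 175 to 347 in the knockouts and 266 to 409 in the controls. Vessel markers summed to 1762 to 2127 in the knockouts and 1408 to 1914 in the controls, and mesenchyme markers to 499 to 3209 in the knockouts and 394 to 1823 in the controls. Of the tested markers of these 4 lists, 0 passed the test, and all 4 ranges overlapped between the groups. Mitochondrial transcripts made up 1.39%, 1.39%, 1.52%, 1.47% and 1.53% of counts in the knockouts and 1.99%, 1.39%, 1.37% and 1.88% in the controls, with control replicates 1 and 4 the highest. The part of cell composition in the lower levels was not tested.

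**Figure D3:**
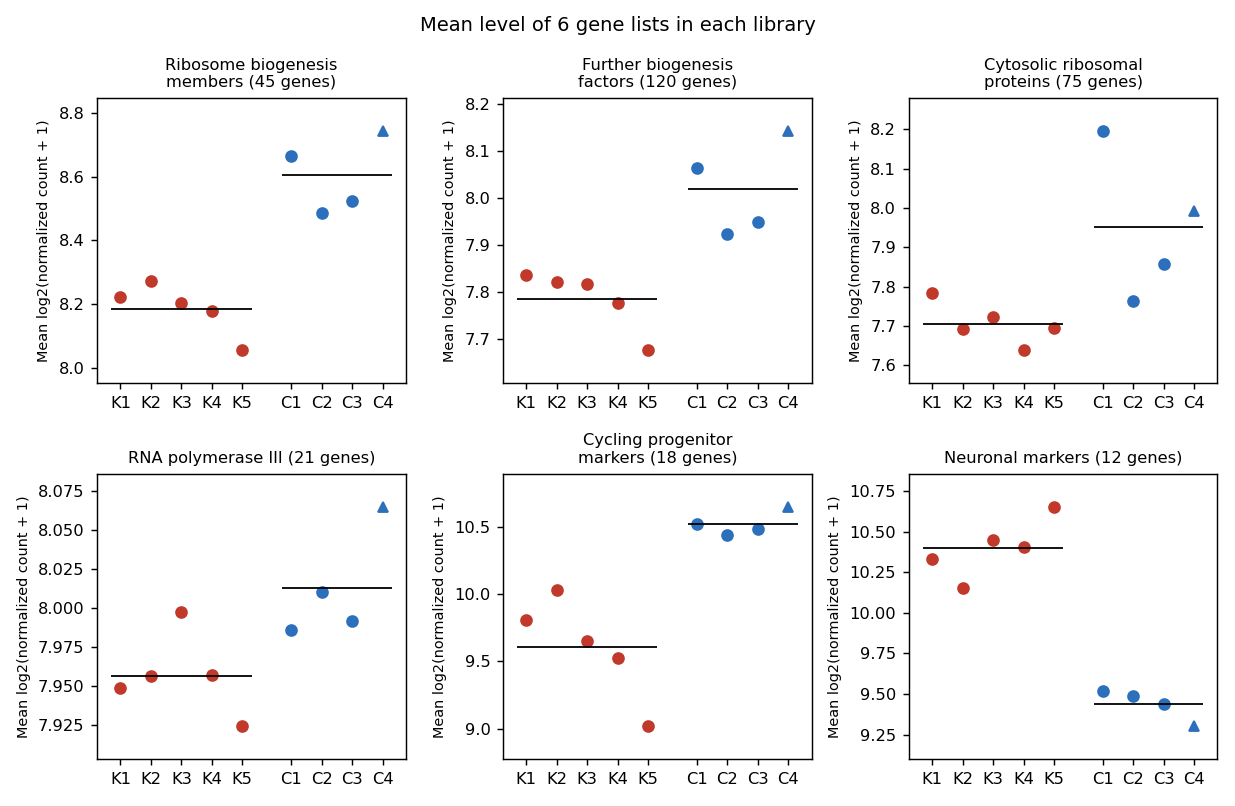
Mean of log2(normalized count + 1) over the tested genes of 6 lists (y axis, own range in each panel) in knockout replicates 1 to 5 (K1 to K5, red) and control replicates 1 to 4 (C1 to C4, blue, a triangle for the heterozygous control); black lines are group means. For the 45 ribosome biogenesis genes the knockouts lie at 8.06 to 8.27 and the controls at 8.49 to 8.74, and knockout replicate 5 is lowest for these and for the cycling markers.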

How the data were processed

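RNA sequencing of MGE tissue at embryonic day 14.5 gave 1 deposited table with 9 libraries. Its values are a signal per gene that the authors made by dividing read counts by 1 size factor per library, as the values show: in each library 100% of the values above 0 were within 0.01 of a whole multiple of 1 step, which gave size factors of 0.989 to 1.05. An automated unit check accepted whole reads for only 2 of the 9 libraries, so the factors and read totals describe depth only and enter no test. Per the submitters' processing notes, the tools were TopHat2 2.1.1, HTSeq 0.9.1, DESeq2 and R 3.4.0, and the build mm10. What each tool did, which annotation was counted and whether strand was used is not given in the sources used here. Identifiers were named from GENCODE M21 and the tables given with it (48144 matched), and exon lengths and positions are from GENCODE M21.

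After a filter (mean of 10 or more normalized counts), 13780 genes were tested on log2(normalized count + 1) by limma 3.58.1 in R 4.3.3, with its trend and robust options (statmod 1.5.0). The test was two-sided, over all 9 libraries with no covariate, with Benjamini-Hochberg adjustment over all genes tested and a threshold of 0.05. Every adjusted p is from limma. For low genes this scale understates fold changes. Means are given with the SD between libraries (n = 5 knockout, n = 4 control). Groups were taken from the sample titles, and no batch is named in the labels. The procedure was also run on simulated data with a common spread setting for all genes and no outlying library. That run checks the code and not how the test behaves with these controls.

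The genes, lists and tests were chosen with earlier results of these data known. Values in every library are given for up to 3 called genes with the smallest p in each role group and for the genes of highest and lowest mean; up to 3 called genes are named from each further list, and other values were chosen after they were seen. A gene that this rule took is not reported here. Alternatives were pseudocounts of 0.5 and 8, no low-value filter, a stricter filter (mean of 50), scaling by upper quartile or by TMM factors, limma without its trend and robust options, library quality weights, a replicate block, each library left out, only control replicates 2 and 3 kept as controls, and a correction for length and GC content. Promoter windows are RefSeq's, and 6 genes had none: Npm1, Fbl, Nol6, Rrp12, Rrs1 and Bop1.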

Additional observations from a re-analysis of the deposited data

Results flagged for a closer look

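Each result below has 1 library whose gap to its nearest neighbour fills most of its group's range. Of 142 groups of 4 or 5 libraries examined, 6 had such a library, and chance gives about 1 in 20. Nol6 had 640.8 normalized counts in knockout replicate 5, against 498.5 to 522.6 in the other knockouts. Tsr1 had 118.9 in knockout replicate 5, against 167.2 to 185.6 in the other knockouts. Mxd1, a MAX-binding repressor, had 206.7 in knockout replicate 1, against 261.5 to 277.9 in the other knockouts. Ltv1 had 218.2 in control replicate 4, against 180.8 to 186.0 in the other controls. Noc4l had 231.5 in control replicate 1, against 251.2 to 254.3 in the other controls. Tsr1 also had 206.6 in control replicate 2, against 225.2 to 227.4 in the other controls.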

How the results depend on the processing

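The count of 30 lower genes lay between 25 and 35 under every alternative except one: with only control replicates 2 and 3 kept as controls it was 16 and the median log2 fold change -0.32 (the cause was not tested; this fit has fewer controls). The count of higher genes was 0 under every alternative run, and no gene among the 46 changed sign while past the threshold. Leaving out 1 library gave 25 to 32 lower genes and medians of -0.39 to -0.49. Of the 30 genes, 25 passed in every fit that left out 1 library and 16 in every alternative. Among the fits that left out 1 library, the fewest calls came without control replicate 4 (25). Without a filter there were 26. With the replicate block, which leaves knockout replicate 5 without a partner and so without weight, there were 25 with a median of -0.39. Same-numbered libraries did not deviate together (correlations of -0.117, -0.0916, 0.137 and -0.0406), and not every library correlated best with its own number. With so few libraries these correlations show no pairing by number but cannot exclude it. The length and GC correction gave 35. Of the 120 further biogenesis factors, 39 were lower, against 20 with the replicate block and the smaller counts given above without control replicate 1 or 4. Of the 75 ribosomal protein genes, 20 were lower, against 8 to 13 without 1 of the 4 libraries given above, 9 without trend and robust and 11 with quality weights, and their median was -0.13 with the length and GC correction. Of the 13 exosome genes, 8 were lower, against 5 without trend and robust, 5 with the length and GC correction and 4 with the replicate block. The planned count model was not run, because whole reads were accepted for only 2 of the 9 libraries. Wdr74 was left out of the test by the filter on low values.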
